A study of Mus musculus with 15 samples.

Results

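Resident Kupffer cell markers are genes whose transcripts mark the macrophages that live in the liver sinusoids. The set examined here held 9 genes, Vsig4, Clec4f, Cd5l, Marco, Cd163, Timd4, Adgre1, Csf1r and Cd68, out of 18193 genes with a probe set carrying a single gene symbol. They were taken by name, and all 12 of their probe sets were read. Of the 9 genes, 8 passed the filter on low values and were tested among 9482 genes. Timd4 did not pass, since it stayed under 4 on the log2 scale on every array.

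Whole liver RNA was hybridised to 15 Affymetrix arrays, 1 for each sample, and levels are log2 GCRMA values, a background-corrected probe set summary on a log2 scale. Untreated wild-type mice (arrays 1 to 3) and treated wild-type mice (arrays 4 to 7) were of the C3H/HeOuJ strain. Treated mutant mice (arrays 8 to 11) were C3H/HeJ, a related strain whose Tlr4P712H allele disables the receptor for bacterial lipopolysaccharide in every cell. The antibiotic group (arrays 12 to 15) was C3H/HeOuJ given the same liver injury after antibiotics. Injury consisted of diethylnitrosamine (DEN, a carcinogen activated in hepatocytes) at 100 mg/kg at an age of 12 weeks, and of carbon tetrachloride (CCl4, a hepatocyte toxin) at 0.50 ml/kg at 13 and again at 15 weeks. Livers of all groups came from mice aged 15 weeks, taken in the injured groups 48 hours after the last CCl4 dose. Drinking water held 500 mg/l vancomycin and 1 g/l of each of ampicillin, metronidazole and neomycin for 2 weeks from week 10, so antibiotics had ended by the week of the DEN dose. Untreated arrays of the mutant and of antibiotic-fed mice are not analysed here, so a strain or antibiotic difference that was present without injury cannot be told apart from one in the response to it. Strain and Tlr4 allele differ together and cannot be told apart either. Labels give male sex for every sample except mutant array 8, which has none stated.

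Kupffer cells arise before birth, renew themselves locally and take up particles, bacteria and old red cells from portal blood. In mice their identity depends on signals from neighbouring stellate, endothelial and hepatic cells, including CSF1 receptor ligands, Notch ligands and BMPs. After toxic injury, resident cells can be lost and monocytes enter from blood, some of which later acquire resident markers. VSIG4 is a complement receptor for opsonised particles, CLEC4F a galactose-binding lectin restricted to Kupffer cells in mice, CD5L a secreted macrophage protein of the scavenger receptor cysteine-rich family, and TIMD4 a phosphatidylserine receptor for dying cells. MARCO is a scavenger receptor for bacteria and particles, and CD163 clears haemoglobin bound to haptoglobin. ADGRE1 is an adhesion-type surface receptor of mouse macrophages, CSF1R the growth factor receptor on which macrophages depend, and CD68 a lysosomal glycoprotein found in macrophages of many kinds.

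The name of the set was checked against the uninjured livers. On the 3 untreated arrays, Vsig4, Clec4f, Cd5l, Cd163, Adgre1 and Csf1r all read above 4. Marco and Cd68 read under 4 on those same arrays, close to background, and Timd4 on every array. Marco and Cd68 were therefore not measured above background in the uninjured liver, nor Timd4 in any group. No deposited value tells which cell made a transcript, and in whole-liver RNA fewer cells of a type and less RNA per cell cannot be told apart.

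Upstream sequence is shown for 3 members whose levels frame the results below: Vsig4, at least 40.7-fold lower in the mutant than in treated wild type, Clec4f, the most Kupffer-restricted of the set, and Cd68, which stayed high in the mutant. Each is the 250 bases before the RefSeq start of the gene on the gene's own strand in GRCm38.p6, a C57BL/6J assembly and not the C3H strains used. Capitals mark GAGGAA (the core bound by the macrophage factor PU.1), TGANTCA (the AP-1 site) and TGGGAA (the core bound by RBPJ, the nuclear partner of Notch), read on both strands, so the reverse complements TTCCTC and TTCCCA are capitals too.
Vsig4, chrX:96293439-96293688, minus strand: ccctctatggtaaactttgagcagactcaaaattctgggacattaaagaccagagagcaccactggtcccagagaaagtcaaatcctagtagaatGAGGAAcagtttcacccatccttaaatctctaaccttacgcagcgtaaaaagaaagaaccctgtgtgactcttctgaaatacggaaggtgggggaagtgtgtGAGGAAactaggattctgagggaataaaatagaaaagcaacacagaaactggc
Clec4f, chr6:83656117-83656366, minus strand: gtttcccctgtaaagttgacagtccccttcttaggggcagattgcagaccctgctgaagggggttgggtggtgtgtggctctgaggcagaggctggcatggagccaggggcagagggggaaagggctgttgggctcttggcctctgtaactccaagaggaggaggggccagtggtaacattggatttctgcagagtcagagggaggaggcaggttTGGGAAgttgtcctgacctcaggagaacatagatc
Cd68, chr11:69666171-69666420, minus strand: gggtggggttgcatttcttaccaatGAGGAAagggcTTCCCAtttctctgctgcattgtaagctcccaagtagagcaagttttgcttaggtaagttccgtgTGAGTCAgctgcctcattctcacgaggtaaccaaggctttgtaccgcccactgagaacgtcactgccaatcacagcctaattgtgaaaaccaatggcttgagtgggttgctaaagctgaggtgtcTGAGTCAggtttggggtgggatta
Vsig4 held GAGGAA at 155 to 150 and again at 53 to 48 bases before the start. Clec4f held TGGGAA at 35 to 30 bases before it and neither of the other motifs. Cd68 held the AP-1 letters at 149 to 143 and at 24 to 18 bases, GAGGAA at 225 to 220 and the RBPJ letters, as TTCCCA, at 214 to 209. No capital stretch overlapped another. Promoters of 7 of the 9 genes were read, all but those of Adgre1 and Csf1r. Among these 7 the AP-1 letters were found in Cd68 alone. GAGGAA was found in 4 of the 7 (Vsig4, Cd5l, Marco and Cd68) and the RBPJ letters in Clec4f, Marco and Cd68. Among 32851 promoter windows of 27025 genes, 23.3% held GAGGAA, 6.75% the AP-1 letters and 21.6% the RBPJ letters. A match describes letters and no binding was measured.

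Arrays agreed closely over the 9482 tested genes, with a Pearson r of 0.977 to 0.993 between arrays of a group. Of all probe sets, 34.6% to 36.7% read at least 4 on an array. Hepatocyte genes were high throughout, with a mean log2 level of the 11 on the array between 12.17 and 13.04. Counts over all genes depended on scaling. Genes higher made up 57.4% of those called in treated against untreated wild type as deposited and 42.4% with arrays centred on their medians, which moved the median log2 difference of all genes from 0.101 to -0.122. For the mutant against treated wild type the share went from 42.8% to 55.3% with quantile normalization, and for the antibiotic group against treated wild type from 35.4% to 49.8%. Against untreated wild type the share went with centring from 60.3% to 43.4% for the mutant and from 58.6% to 44.5% for the antibiotic group. Tests are limma's with Benjamini-Hochberg adjustment over 9482 genes, a gene being called at an adjusted p under 0.05. Labels do not say how the samples of a group relate, so a p measures the spread between these arrays.

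Transcripts of the lectin and of the complement receptor read at or near background in the mutant livers. Clec4f read 5.27, 7.19 and 7.54 on the untreated arrays, 7.96, 7.04, 7.35 and 6.56 on the treated wild-type arrays, 2.48, 3.48, 3.17 and 3.38 on the mutant arrays, and 5.38, 5.07, 6.11 and 5.67 on the antibiotic arrays. Every mutant array lay under 4 and below every wild-type array. Antibiotic arrays lay below all treated wild-type arrays and spanned untreated array 1. Vsig4 read 6.01, 7.83 and 8.55 untreated, 9.87, 9.27, 9.52 and 8.78 treated, 3.57, 3.59, 4.05 and 3.85 in the mutant, and 6.0, 6.86, 7.69 and 7.0 in the antibiotic group. Treated wild-type livers were thus the highest group without overlap, mutant livers the lowest, and the untreated and antibiotic groups overlapped.

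Cd5l and Marco, which encode scavenger-type proteins, were measured above 4 on all mutant arrays for Cd5l and on 3 of 4 for Marco. Cd5l was at 7.34, 8.30 and 8.57 untreated, 10.14, 10.10, 9.77 and 9.76 treated, 6.58, 6.82, 6.78 and 6.58 in the mutant, and 7.37, 8.16, 8.65 and 7.89 after antibiotics. Mutant arrays lay below every other array, while the antibiotic arrays overlapped the untreated ones. Marco was at 3.46, 3.15 and 3.09 untreated, 8.52, 7.31, 7.42 and 7.46 treated, 5.06, 4.31, 5.17 and 3.95 in the mutant, and 6.22, 6.04, 7.49 and 6.82 after antibiotics. Its untreated arrays were the lowest, the mutant arrays sat between them and all others, and antibiotic array 14 reached into the treated range. A further Marco probe set stayed between 2.36 and 3.68 on all 15 arrays and was not tested.

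Timd4 read 2.04, 2.58 and 3.27 untreated, 3.26, 3.0, 3.19 and 2.96 treated, 1.68, 1.86, 1.58 and 1.76 in the mutant, and 1.85, 2.20, 2.23 and 2.02 after antibiotics. These values lie close to background and give neither a fold nor an order of the groups.

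Cd163, the haemoglobin scavenger, read 5.86, 7.22 and 7.33 untreated, 7.70, 7.29, 6.99 and 7.26 treated, 3.13, 2.76, 4.31 and 2.64 in the mutant, and 6.42, 6.25, 6.06 and 5.73 after antibiotics. Mutant array 10 was the one array of its group above 4. Adgre1, the adhesion-type receptor gene, read 4.14, 4.71 and 4.94 untreated, 7.67, 7.27, 7.45 and 6.83 treated, 3.81, 3.62, 3.85 and 4.09 in the mutant, and 4.74, 4.56, 5.52 and 4.95 after antibiotics. Treated wild type stood alone for Adgre1: its lowest array, 6.83, was above the highest array of any other group, 5.52.

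Csf1r, the growth factor receptor, read 8.33, 9.12 and 9.36 untreated, 10.72, 10.14, 10.73 and 10.27 treated, 7.72, 7.73, 7.54 and 7.65 in the mutant, and 9.40, 9.33, 9.87 and 9.68 after antibiotics. The mutant was the lowest group and varied least, with an SD of 0.09. Of the other Csf1r probe sets, 1419873_s_at read 3.45 to 4.23 in the mutant and 6.73 to 7.92 in treated wild type, and 1423593_a_at ran from 3.01 to 4.82 over all arrays. Cd68 read 2.60, 2.94 and 3.05 untreated, 9.72, 8.98, 9.37 and 9.11 treated, 9.72, 8.74, 9.41 and 9.41 in the mutant, and 10.28, 9.35, 10.87 and 10.10 after antibiotics. All 12 injured livers were therefore high for Cd68. Its mutant arrays lay within or beside the treated wild-type range, unlike those of the other tested genes.

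**Figure D1:**
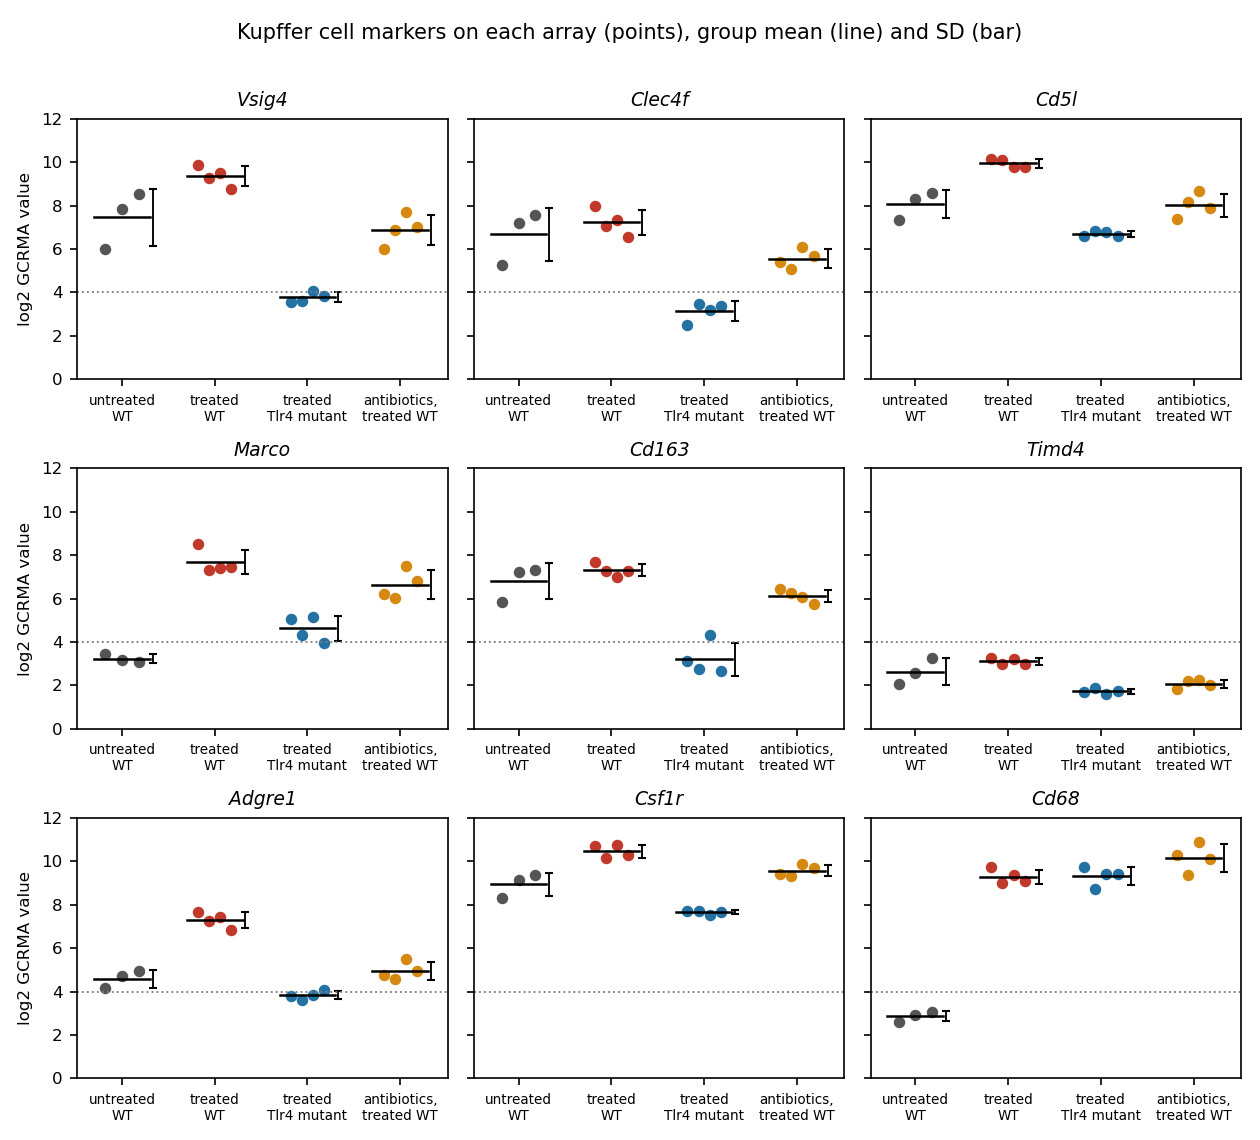
Log2 GCRMA values of the 9 genes on the 15 arrays (points) in the 4 groups, with the group mean (line) and SD (bar) and a dotted line at 4, the level taken as background. Where a gene has several probe sets the one with the highest mean is drawn. Mutant arrays are lowest for Vsig4, Clec4f, Cd5l, Cd163, Adgre1 and Csf1r, and level with treated wild type for Cd68.

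With injury, 6 of the 8 tested markers rose in wild-type livers and none fell, at an unadjusted p under 0.05 as well. Cd68 and Marco, both near background before injury, rose most, followed by Adgre1, Vsig4, Cd5l and Csf1r. Cd68 and Marco passed the filter on low values only through injured groups, so their being higher than untreated livers was largely fixed by that filter. The count of 6 and the median given here include both. Clec4f and Cd163 did not pass the test. Most genes changed in this comparison: 62.6% of all tested genes were called, 35.9% higher and 26.7% lower, and 66.4% had no overlap between groups. The markers' count is to be read against that. Their median log2 difference was 1.88, against 0.101 over all genes.

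Cd68 was at least 39.2-fold higher, the bound being set against a floor of 4, with a measured difference of 6.43 ± 0.30 (SE; limma adjusted p = 5.5e-10). Marco was at least 12.8-fold higher (4.44 ± 0.38, adjusted p = 1.73e-07). Adgre1 rose 6.52-fold (2.70 ± 0.25, adjusted p = 3.34e-07), Vsig4 3.71-fold (1.89 ± 0.48, adjusted p = 0.00349), Cd5l 3.67-fold (1.88 ± 0.28, adjusted p = 4.86e-05) and Csf1r 2.88-fold (1.53 ± 0.22, adjusted p = 3.26e-05). Clec4f differed by 0.56 with an interval of -0.44 to 1.55 (95%, adjusted p = 0.312), and Cd163 by 0.51, from -0.32 to 1.34 (adjusted p = 0.269). The Csf1r probe set 1423593_a_at was not called (0.38, adjusted p = 0.212), whereas 1419873_s_at was (at least 4.96-fold higher, adjusted p = 0.000221). With quantile normalization the differences were 5.79 for Cd68 and 3.85 for Marco.

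Untreated array 1 weighed on the comparisons with untreated livers. It was the lowest of the 3 untreated arrays for 7 of the 8 tested markers, the exception being Marco, and for 38.5% of all tested genes. It was also the lowest for 12 of 15 other Kupffer cell genes, 14 of 14 sinusoidal endothelial, 9 of 10 stellate and 10 of 11 hepatocyte markers. Median levels of the 8 markers were 5.57, 7.20 and 7.44 on arrays 1, 2 and 3. Median levels of the endothelial markers were 6.10, 7.0 and 6.93. Without array 1 the Clec4f difference turned from 0.56 to -0.14 (limma adjusted p = 0.767) and that of Vsig4 went from 1.89 to 1.17 (adjusted p = 0.0191), and the same 6 genes were called higher. The part of this array in the Clec4f level was not tested beyond that.

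Between mutant and treated wild-type livers, 7 of the 8 markers were lower and none was higher, also at an unadjusted p under 0.05. Cd68 was the exception. The 7 genes did not overlap between the groups on any array. Over all genes, 30.8% were called, 17.6% lower and 13.2% higher, and 31.1% did not overlap. The median difference of the markers was -3.36, or -3.23 with values under 4 set to 4, against 0.0164 over all genes as deposited, and 7 markers were called lower under both other scalings too.

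Vsig4 was at least 40.7-fold lower (limma adjusted p = 1.26e-06). For 4 further markers, too, mutant arrays read under 4 and the fold is a bound, so they have no order among themselves. Cd163 was at least 9.4-fold lower (adjusted p = 2.35e-06) and Clec4f at least 9.36-fold (adjusted p = 1.15e-05). With values under 4 set to 4 both differed by -3.23. Adgre1 was at least 9.73-fold lower (adjusted p = 2.37e-07) and Marco at least 8.23-fold (adjusted p = 2.25e-05). Measured above background on every array, Cd5l was 9.54-fold lower (-3.25 ± 0.26 SE, adjusted p = 1.26e-06) and Csf1r 6.99-fold (-2.81 ± 0.21, adjusted p = 5.88e-07). Cd68 differed by 0.02 ± 0.28, with an interval from -0.58 to 0.62 (adjusted p = 0.959). Both other Csf1r probe sets were lower as well (at least 9.54-fold, adjusted p = 2.56e-05, and at least 1.14-fold, adjusted p = 0.00507).

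The antibiotic group was lower than treated wild type for 6 of the 8 markers, and none was called higher. At an unadjusted p under 0.05, 7 were lower and 1, Cd68, was higher. Both comparisons use the same 4 treated wild-type arrays, so they are given side by side. Of all genes, 14% were called, 9.01% lower and 4.95% higher, and 18.1% did not overlap. The median of the markers was -1.43, against -0.0252. Vsig4 was 5.54-fold lower (-2.47 ± 0.45 SE, limma adjusted p = 0.00392) and Adgre1 5.14-fold (-2.36 ± 0.23, adjusted p = 0.000137). Cd5l was 3.79-fold lower (-1.92 ± 0.26, adjusted p = 0.000992) and Csf1r 1.86-fold (-0.89 ± 0.21, adjusted p = 0.0121). Of the other Csf1r probe sets, 1419873_s_at was lower, with overlap (2.58-fold, adjusted p = 0.0346), and 1423593_a_at was not called (-0.30, adjusted p = 0.447).

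Weaker calls were Clec4f, 3.18-fold lower (-1.67 ± 0.43 SE, limma adjusted p = 0.0201), and Cd163, 2.29-fold lower (-1.19 ± 0.36, adjusted p = 0.0402). The Clec4f call was lost without array 4 (adjusted p = 0.0565) or array 12 (adjusted p = 0.0535). The Cd163 call was lost without any 1 of arrays 4, 5, 6, 7, 12, 14 and 15, with an adjusted p up to 0.105. With all arrays kept and no filter on low values, Cd163 was not called either (adjusted p = 0.055). Marco was not called (-1.04 ± 0.35, adjusted p = 0.0628) but was without array 14 (-1.32, adjusted p = 0.0263). Cd68 was 0.86 ± 0.28 above treated wild type (interval 0.26 to 1.46, adjusted p = 0.056), not called as deposited. It was called higher with centred arrays (0.90, adjusted p = 0.0427), quantile normalization (0.90, adjusted p = 0.0396) and values under 4 set to 4 (0.86, adjusted p = 0.0493). A trended prior (adjusted p = 0.0469), array weights (1.04, adjusted p = 0.0102) or leaving out array 4, 9 or 13 gave the call as well. Antibiotic array 14 was the highest of its group for 7 of the 8 markers.

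**Figure D2:**
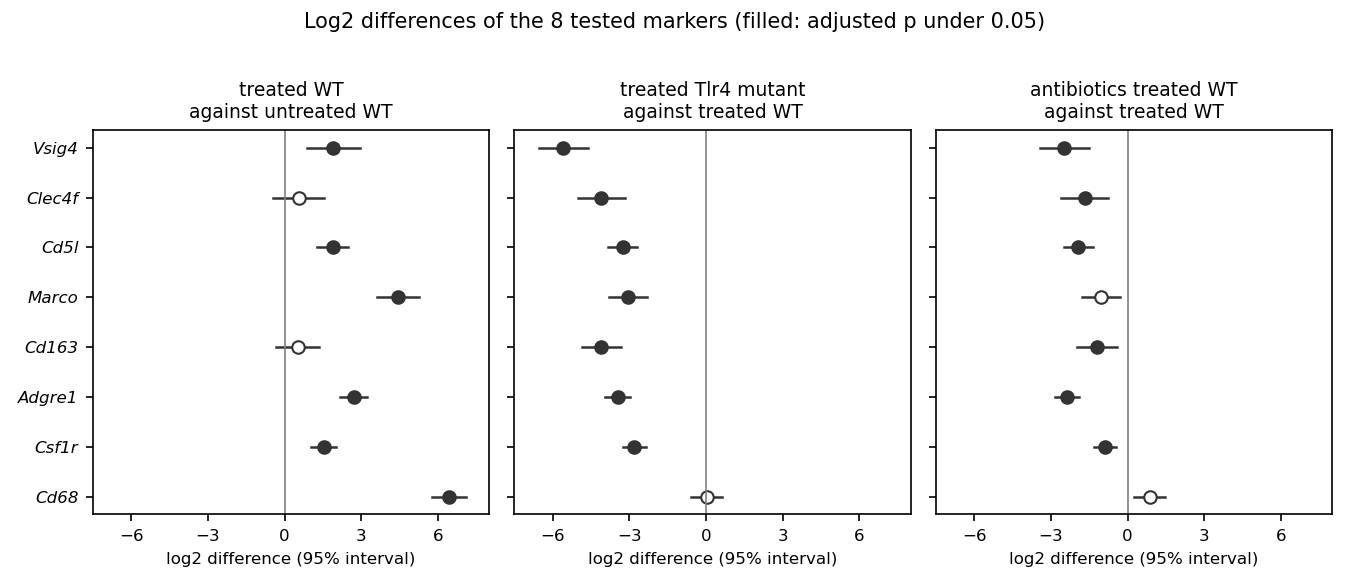
Log2 differences of the 8 tested genes in 3 comparisons, with 95% intervals from the fit of all 15 arrays. Filled points passed an adjusted p under 0.05. The mutant and antibiotic panels share the treated wild-type arrays. Of the 8 genes, 6 are above 0 with filled points for injury, 7 below 0 for the mutant and 6 below 0 for antibiotics, with Cd68 at 0.02 in the mutant panel. Values under 4 are drawn as deposited, so differences that rest on them have no order.

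Mutant and antibiotic-fed livers were also compared with each other. In the antibiotic group 7 of the 8 markers were higher, without overlap, while 12.3% of all genes were called, 6.88% higher and 5.41% lower, and 15.6% did not overlap. Vsig4 was at least 7.34-fold higher (limma adjusted p = 0.000794), Cd163 at least 4.11-fold, Marco at least 4.02-fold, Clec4f at least 2.94-fold and Adgre1 at least 1.89-fold. For these 5 the mutant arrays include values under 4, so the bounds set no order. Csf1r was 3.77-fold higher (1.91) and Cd5l 2.52-fold (1.33), both measured in each group. The Csf1r probe set 1419873_s_at was higher too (at least 3.7-fold, adjusted p = 0.00441), and 1423593_a_at was not called (0.72, adjusted p = 0.0649). Cd68 was not called (0.83, adjusted p = 0.067), and passed with array weights (0.95, adjusted p = 0.0498) or without antibiotic array 13 (1.10, adjusted p = 0.0144).

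Against untreated wild type, the injured mutant livers were lower for 6 markers and higher for 2. None of the 8 overlapped. Of all genes 54.2% were called, 21.5% lower and 32.6% higher, and 56.9% did not overlap. Vsig4 was at least 11-fold lower, Cd163 at least 6.61-fold and Clec4f at least 6.36-fold, so mutant livers held less of these 3 transcripts than uninjured wild-type livers. Without untreated array 1 the measured differences went from -3.70 to -4.42 for Vsig4 and from -3.54 to -4.24 for Clec4f, both resting on mutant values under 4. Cd5l was 2.6-fold lower (-1.38) and Csf1r 2.43-fold (-1.28). The Csf1r probe set 1419873_s_at was lower with overlap between the groups (at least 1.85-fold, limma adjusted p = 0.0482). Probe set 1423593_a_at was lower too (-0.64, adjusted p = 0.0479), with all its mutant values under 4. Cd68 was at least 39.9-fold higher, and like Marco it had passed the filter only through injured groups. Adgre1 (at least 1.49-fold lower, limma adjusted p = 0.0175) and Marco (at least 1.54-fold higher, adjusted p = 0.00658) lay nearest the threshold. With values under 4 set to 4 neither was called, Adgre1 differing by -0.58 (adjusted p = 0.0537) and Marco by 0.64 (adjusted p = 0.169), which left 5 markers lower and 1 higher. The Adgre1 call was lost without array 2 (adjusted p = 0.0593) or array 3 (adjusted p = 0.0919), and the Marco call with quantile normalization (adjusted p = 0.0613).

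As deposited, antibiotic-fed injured livers differed from untreated ones for 3 markers, and Clec4f lay just outside the threshold. Cd68 (at least 71-fold), Marco (at least 6.24-fold) and Csf1r (0.63, 1.55-fold, limma adjusted p = 0.0238) were higher, a count of 3 of 8 where 58.8% of all genes were called, 34.5% higher and 24.3% lower, and 59.3% did not overlap. Here too, Cd68 and Marco had passed the filter only through injured groups. Neither other Csf1r probe set was called, 1419873_s_at at 1.00 (adjusted p = 0.0565) and 1423593_a_at at 0.08 (adjusted p = 0.803). Cd5l differed by -0.05 (adjusted p = 0.896) and Adgre1 by 0.34 (adjusted p = 0.245). Vsig4 differed by -0.58 (adjusted p = 0.32), Clec4f by -1.11 (adjusted p = 0.0522) and Cd163 by -0.69 (adjusted p = 0.143). Clec4f was called lower with centred arrays (-1.29, adjusted p = 0.0264), quantile normalization (-1.40, adjusted p = 0.0142), values under 4 set to 4 (-1.11, adjusted p = 0.0438), a trended prior (adjusted p = 0.049) and array weights (-1.33, adjusted p = 0.0204). It was also called without array 4 (adjusted p = 0.0464), array 8 (adjusted p = 0.0496) or array 14 (-1.30, adjusted p = 0.0408). Cd163 was called lower with quantile normalization (-0.96, adjusted p = 0.0451) and with array weights (-0.89, adjusted p = 0.0443). Without untreated array 1 Vsig4, Clec4f and Cd163 were called lower at -1.30 (adjusted p = 0.0115), -1.81 (adjusted p = 0.00112) and -1.16 (adjusted p = 0.017), and Csf1r was no longer called (0.33, adjusted p = 0.167). Without antibiotic array 14 (adjusted p = 0.069) or array 15 (adjusted p = 0.0505) Csf1r was not called either, nor with centred arrays (0.45, adjusted p = 0.0874), the mean of its probe sets (0.57, adjusted p = 0.0791) or a fit of these groups alone (adjusted p = 0.062).

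Group means put the markers in a few orders. For Vsig4 and Cd5l the order was treated wild type, then untreated and antibiotic-fed, whose difference was not called, then mutant. Clec4f and Cd163 ran from treated through untreated wild type and the antibiotic group to the mutant. As deposited, untreated livers were called apart from neither wild-type neighbour for either gene, while treated and antibiotic-fed livers were called apart. For Clec4f the step from untreated to antibiotic-fed livers had an adjusted p of 0.0522 in limma's test and was called under 5 alternatives that keep all arrays. For Adgre1 treated wild type came first, antibiotic-fed and untreated livers were not called apart, and the mutant was last. Csf1r ran from treated wild type through the antibiotic group and untreated livers to the mutant, with each step called as deposited. The step between the antibiotic group and untreated livers was the one lost under the alternatives given above. Where every Csf1r probe set had to be called, the step from treated wild type to the antibiotic group was lost too (limma adjusted p = 0.447). Marco ran from treated wild type and the antibiotic group, not called apart, through the mutant to untreated livers. For Cd68 the 3 injured groups were not called apart as deposited, and the untreated livers were far below them. The antibiotic group was called above treated wild type under the alternatives given above.

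Changes were then taken relative to Csf1r, by subtracting the Csf1r log2 value of the same array, which removes any scaling of a whole array. An exact two-sided permutation test over arrays was used, with 7 genes in each comparison. In the antibiotic group against treated wild type, Vsig4 fell by 1.58 more than Csf1r, Adgre1 by 1.47, Cd5l by 1.03 and Clec4f by 0.78. Cd68 was 1.75 higher relative to Csf1r. Each of these 5 had p = 0.0286, the smallest that 4 against 4 arrays allow, and an adjusted p = 0.04 (exact permutation). Marco (-0.14, p = 0.6) and Cd163 (-0.30, p = 0.229) did not pass the exact test.

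In the mutant against treated wild type, Cd68 was 2.83 higher relative to Csf1r and Cd5l differed by -0.45 (exact p = 0.0857), both measured in each group. Relative to Csf1r the 4 mutant arrays of Cd68 ran from 1.01 to 2.00 and the treated wild-type arrays from -1.36 to -1.01. Vsig4, Clec4f, Cd163, Adgre1 and Marco had mutant values under 4, so the subtraction was repeated with such values set to 4, a choice made after seeing the data. Vsig4 then differed by -2.54 and Adgre1 by -0.48, which like Cd68 had the smallest possible p of 0.0286 and an adjusted p of 0.0667 in the exact permutation test, which does not pass. Clec4f differed by -0.42 (exact p = 0.0857), Cd163 by -0.43 (exact p = 0.143) and Marco by -0.24 (exact p = 0.571). Raising mutant values to 4 limits how far a gene can fall relative to Csf1r, so these differences are bounds. For Clec4f, under 4 on all 4 mutant arrays, the repeated test cannot decide. As deposited, Clec4f differed by -1.29 (exact p = 0.0286, adjusted p = 0.05, which does not pass) and Cd163 by -1.29 (exact p = 0.0571). With 3 untreated arrays the exact test cannot go below 0.0571, so no relative change against untreated livers can pass.

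Array by array, members of the set moved together to different extents. Over the 15 arrays, Pearson r between Vsig4 and Clec4f was 0.97, and 0.86 once each group's mean had been subtracted. For Vsig4 and Cd5l these were 0.96 and 0.90, and for Csf1r and Adgre1 0.90 and 0.80. Cd163 followed Clec4f over all arrays (0.93) and less within groups (0.43). Cd68 did not follow Clec4f over all arrays (-0.29) and was at 0.42 within groups, while its r with Marco was 0.73 and 0.66. Mutant values of Clec4f, Cd163, Adgre1 and Vsig4 and untreated values of Marco and Cd68 under 4 enter these as deposited. The points share arrays and group differences, and these values are descriptions over 15 arrays. Treated wild-type array 4 was the highest of its group for 7 of the 8 markers, and array 7 lay below its group mean for 8 of 8.

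**Figure D3:**
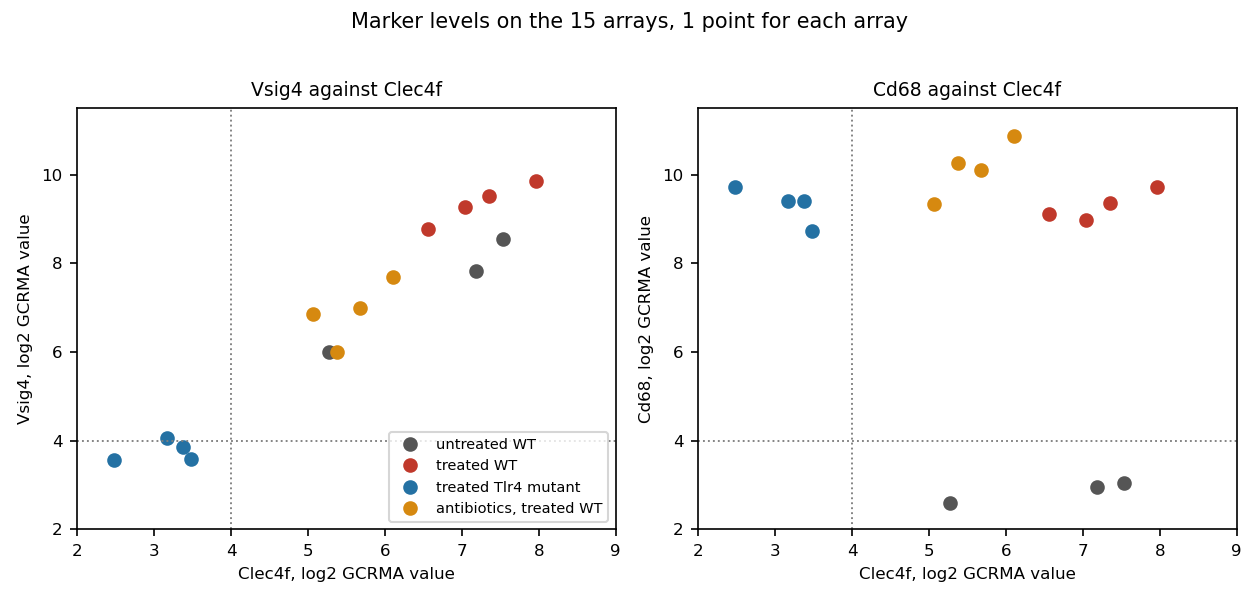
Log2 GCRMA values of Vsig4 (left) and Cd68 (right) against Clec4f, 1 point for each of the 15 arrays, coloured by group, with dotted lines at 4. Vsig4 and Clec4f run along 1 line (r = 0.97), whereas Cd68 separates the 12 injured livers from the 3 untreated ones and is high where Clec4f is low in the mutant.

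Genes whose levels followed the set most closely were sought by Pearson r with the mean of the 8 markers over 15 arrays. The complement gene C1qa came first (r = 0.986), with 6.28 ± 1.17 (SD, n = 3) untreated, 9.25 ± 0.51 (n = 4) treated, 5.23 ± 0.02 (n = 4) in the mutant and 7.74 ± 0.87 (n = 4) after antibiotics. Next were Wfdc17 (0.977), Gatm (0.975), She (0.974), Fabp7 (0.972), Casp1 (0.972), Fcgr3 (0.970), C1qc (0.970), Itga9 (0.967) and Ifi44l (0.967). C1qa, C1qc and Fcgr3, an Fc receptor gene, also belong to the list of general macrophage genes. Cd68 had different nearest genes, Prelid2 (0.989), Anxa2 (0.988) and Cd14 (0.987), Cd14 encoding a co-receptor for lipopolysaccharide. Cd14 read 2.58 ± 0.08 (SD, n = 3) untreated, 7.79 ± 0.30 treated, 8.35 ± 0.45 in the mutant and 8.54 ± 0.48 after antibiotics (n = 4 each).

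Nearest to single markers were Timp3 for Clec4f (0.968) and Adgre4, a relative of Adgre1, for Cd5l (0.962). Jam2, Rab31 and Cd52 were nearest to Marco (0.978, 0.971 and 0.970), and Lcp2, Gbp8 and Slc7a8 to Adgre1 (0.979, 0.974 and 0.968). Csf1r was followed by Mrc1, the mannose receptor (0.970), and by the matrix gene Bgn (0.966). For Vsig4 the nearest gene was Clec4f itself (0.967). Smim8 (0.941) and Mndal (0.936) were nearest to Cd163.

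Other genes attributed to Kupffer cells behaved less uniformly. Of 15 tested, 9 rose and 2 fell with injury in wild type (median 1.24), 9 were lower and 1 higher in the mutant (median -0.89, or -0.72 with values under 4 set to 4), and 6 were lower and 1 higher after antibiotics (median -0.30). Fcna, a ficolin gene, was at 6.38 untreated and 5.96 treated and was at least 3.88-fold lower in the mutant (limma adjusted p = 0.000149) and at least 3.54-fold lower after antibiotics (adjusted p = 0.00911). Axl, a receptor for dying cells, was lower in both (at least 2.33-fold, adjusted p = 0.000177, and at least 2.03-fold, adjusted p = 0.0092). So was Il18bp, an interleukin inhibitor, by at least 2.95-fold (adjusted p = 0.000326) and at least 2.64-fold (adjusted p = 0.0125). Id1, which many cell types express, rose at least 71.5-fold with injury (adjusted p = 4.66e-11). Folr2, Spic and Cd209f stayed under 4 on all arrays and were not tested.

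Genes shared by macrophages in general rose together: 19 of 19 tested were higher with injury (median 3.26), 18 of 19 lower in the mutant (median -2.58) and 14 of 19 lower after antibiotics (median -1.11, with 13 or 15 lower and 1 higher under the other scalings). The exception in the mutant was Cd14, which like Cd68 was not called (0.56, limma adjusted p = 0.0943). Tyrobp, the adaptor of many myeloid receptors, was at 9.73 in treated wild type and differed by -4.16 in the mutant (adjusted p = 2.95e-06) and by -2.13 after antibiotics (adjusted p = 0.00348). Among genes of recruited monocytes and scar-associated macrophages, 10 of 11 rose with injury, 8 were lower and 1 higher in the mutant, and 5 were lower and 1 higher after antibiotics. Ccr2, the monocyte chemokine receptor, was at least 3.71-fold lower in the mutant (adjusted p = 1e-06). S100a6 was higher after antibiotics (1.26, adjusted p = 0.00781), and Lgals3, a galectin gene, rose at least 188-fold with injury.

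Ligands and partners of the CSF1 receptor were read from a separate list. All 5 tested genes rose with injury and all 5 were lower in the mutant, and 2 were lower after antibiotics. With centred arrays 4 of the 5 rose with injury and with quantile normalization 3. With values under 4 set to 4, 4 rose and 4 were lower in the mutant. Csf1, the ligand, was at 5.10 untreated, 5.78 treated, 4.98 in the mutant and 5.35 after antibiotics. Its differences were 0.68 with injury (limma adjusted p = 0.0187), -0.80 in the mutant (adjusted p = 0.0108) and -0.43 after antibiotics (adjusted p = 0.192, not called). Beside Tyrobp, the signalling adaptor Grb2 was lower in the mutant (-0.85, adjusted p = 1.4e-05) and after antibiotics (-0.55, adjusted p = 0.0026). Inpp5d and Cbl, which limit receptor signalling, were lower in the mutant (at least 1.22-fold for Inpp5d, -0.54 for Cbl) and not called after antibiotics. Il34, the other ligand, Spi1, Src and Fgr stayed under 4 on all arrays.

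Niche signals from stellate and endothelial cells gave 8 higher and 2 lower of 12 with injury, 0 higher and 5 lower in the mutant, and 0 higher and 2 lower after antibiotics. Vcam1, an adhesion molecule, was at 5.34 untreated and 8.69 treated and was 4.1-fold lower in the mutant (-2.03, limma adjusted p = 0.00019). The BMP ligand genes Bmp2 (-0.90, adjusted p = 0.000489) and Gdf2 (at least 1.37-fold, adjusted p = 0.00414) and the endoglin gene Eng (-0.96, adjusted p = 0.0196) were lower in the mutant. After antibiotics the Notch ligand Dll1 (-0.53, adjusted p = 0.0178) and the Notch effector Rbpj (-0.52, adjusted p = 0.016) were lower. With centred arrays the injury count was 5 higher and 3 lower, and with quantile normalization 4 higher and 2 lower. With values under 4 set to 4 it was 7 higher and 2 lower, and 4 were lower in the mutant.

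Partners of the scavenging members did not move as a group, with 3 higher and 3 lower of 9 with injury, 1 higher and 3 lower in the mutant and 0 higher and 2 lower after antibiotics. Haptoglobin (Hp), whose complex with haemoglobin CD163 binds, stayed at 13.72 to 13.88 in all 4 group means and was not called in these 3 comparisons. Hmox1, which breaks down haem, rose by 1.24 (limma adjusted p = 0.000275) and was lower in the mutant (-0.89, adjusted p = 0.00546) and after antibiotics (-0.97, adjusted p = 0.00932). Ighm, the IgM heavy chain gene, whose protein circulates with CD5L, went from 8.46 to near 4 with injury (at least 18.6-fold lower, adjusted p = 6.46e-09). The bile pigment reductase gene Blvrb fell by 1.62 with injury and was 0.72 higher in the mutant (adjusted p = 0.031). The iron exporter gene Slc40a1 fell by 0.61 with injury and differed by 0.02 in the mutant (adjusted p = 0.926).

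Family relatives of the markers gave 6 higher and 3 lower of 10 with injury, 0 higher and 6 lower in the mutant, and 1 higher and 5 lower after antibiotics. Adgre4 was at least 5.09-fold lower in the mutant (limma adjusted p = 8.54e-05) and 3.08-fold lower after antibiotics (-1.62, adjusted p = 0.00874). The scavenger receptor gene Msr1 rose 7.2-fold with injury (2.85, adjusted p = 1.62e-08) and was lower in the mutant (-1.54, adjusted p = 2.12e-05) and after antibiotics (-0.84, adjusted p = 0.00803). Lamp1 and Lamp2, lysosomal relatives of Cd68, were lower with injury (-0.27, adjusted p = 0.0213, and -0.46, adjusted p = 0.00384). They were not called in the mutant (0.21 and 0.12). Kit and Pdgfra, receptor tyrosine kinase relatives of Csf1r that mark other cells, were lower in the mutant (at least 1.43-fold and 3.9-fold). Counts of these relatives, of the partners and of the other Kupffer cell genes moved by at most 1 under either other scaling. Among macrophage transcription factors 3 of 9 were lower in the mutant, Zeb2 (-2.02), Irf8 (at least 3.19-fold) and Maf (-1.11), and 1 was higher.

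Markers of several other liver cell types differed in the mutant comparison too. All 14 sinusoidal endothelial markers tested were lower in the mutant (median -0.98), as were all 10 stellate markers (median -1.74). With quantile normalization 13 of the 14 endothelial markers were lower. Linear levels summed over the 15 endothelial markers on the array were 3910 to 4500 in treated wild type, 1910 to 2430 in the mutant and 3350 to 4590 after antibiotics. Summed stellate levels were 15000 to 17400, 4400 to 6020 and 9850 to 13800. After antibiotics 1 of 14 endothelial and 5 of 10 stellate markers were lower. Of 11 hepatocyte markers none was called in limma's test in either comparison as deposited. At an unadjusted p under 0.05, 2 of the 11 were higher in each, and with centred arrays 1 was called higher in each. All 6 markers of dividing cells were lower in both. Cholangiocyte markers went the other way in the mutant, with 2 of 4 tested higher and 0 lower (median 0.55). After antibiotics 0 of these 4 were called. Pecam1 and Des were under 4 on every array. The part of these cell types in the marker differences was not tested.

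Few markers of other blood cells passed the filter. All 9 T and NK cell genes on the array stayed under 4 on every array. Of 9 neutrophil genes 7 did so, and both others, S100a8 and S100a9, rose with injury and were lower in the mutant and after antibiotics. In treated wild type S100a8 was at 5.84, in the mutant at 3.39 and after antibiotics at 3.52.

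**Figure D4:**
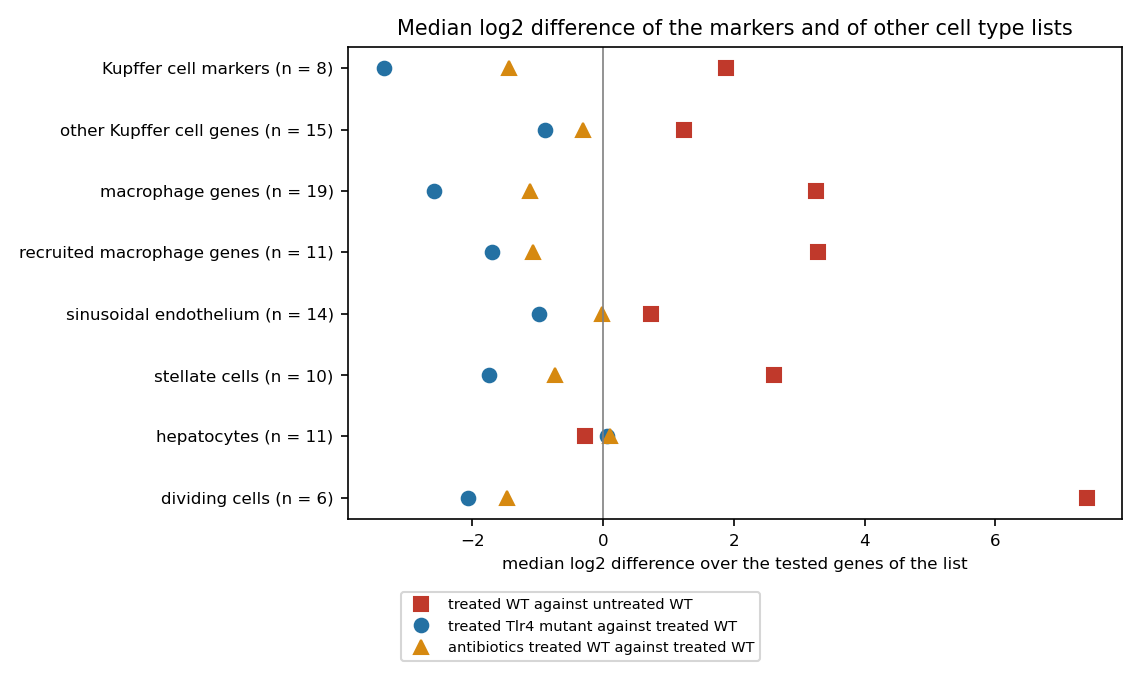
Median log2 difference over the tested genes of the Kupffer cell markers and of 7 other lists in 3 comparisons (squares injury, circles mutant, triangles antibiotics), with the number of genes tested. Values under 4 enter as deposited. In the mutant comparison the marker median is -3.36, that of general macrophage genes -2.58, of stellate markers -1.74 and of hepatocyte markers 0.06.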

How the data were processed

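Total RNA from 15 mouse livers was hybridised to Affymetrix arrays, 1 per sample. The deposited table holds log2 GCRMA values, which the authors background-corrected and normalised, per the submitters' processing notes, with version and settings not given in the sources used here. It had 0 missing values and 0 unused columns, and it was used as deposited. An array gives no count, so the number of arrays limits the precision.

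Probe sets were named from the platform annotation through the GRCm38.p6 gene table. Of 45101, 34945 had 1 symbol, 932 several, 9160 none and 64 were controls, and 162 Entrez identifiers were not in the table. A probe set was kept if it reached 4 on at least 3 arrays (15541), and the one with the highest mean stood for its gene (9482 genes). All 15 arrays entered 1 fit with limma (version 3.58.1, R 4.3.3) (4 group means, 11 residual degrees of freedom, prior 3.4, prior SD 0.203), with Benjamini-Hochberg adjustment within each of 6 comparisons. Where arrays of the lower group read under 4, these took the value 4 and the fold is a bound. The script was tested on simulated data. Promoters came from RefSeq. Plots used matplotlib 3.10.9 with pandas 2.3.3 (Python 3.11.15).

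The markers, the lists of other genes and the tests were chosen with earlier results of these data known. Named genes were all 9 markers, up to 3 called genes with the largest difference per other list, any gene of the CSF1 receptor and partner lists, and the 10 genes most like the marker mean and the 3 most like each marker. Lamp1, Lamp2, Cd14 among the macrophage genes, Bmp2 and the genes under 4 on all arrays were named after their values were seen. Alternatives were other scalings, filters, probe set rules, priors, array weights, a threshold of 0.01 and leaving out each array. Labels also carry a description with another age and a liver resection, which contradicts the other labels and was not used.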

Additional observations from a re-analysis of the deposited data

Results flagged for a closer look

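Outlying arrays were sought in the groups of 4, over 10 probe sets of the markers that passed the filter, which gave 30 checks. In 2 of them the array farthest out was separated from the others by more than Dixon's 95% critical value for the gap as a share of the group's range, and chance flags about 1 in 20 groups. Marco read 8.52 on treated wild-type array 4, where the other 3 arrays read 7.31 to 7.46. The Csf1r probe set 1419873_s_at read 6.86 on antibiotic array 14, where the others read 5.66 to 5.80. Both arrays were the highest of their groups for 7 of the 8 tested markers.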

How the results depend on the processing

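Over the 8 tested markers and 6 comparisons, 48 differences were recomputed under 10 alternatives that keep all arrays. Of these 480 values, 454 kept their direction and their side of the threshold, 11 lost the call, 13 gained one and 2 reversed. Leaving out each array in turn gave 720 values, of which 686 kept both, 14 lost the call, 11 gained one and 9 reversed. The cause of these changes was not tested. At an adjusted p under 0.01, 3 markers were called in the antibiotic group against treated wild type, all lower. Against untreated livers the antibiotic group had 5 calls with quantile normalization and with array weights (3 higher and 2 lower each), and 2 to 5 calls when leaving out an array, the 5 being without untreated array 1. Shares of all genes called at that threshold and under these settings were not taken, so these counts describe the markers' stability alone. The reversed values were small: Clec4f with injury was -0.07 with array weights and ran from -0.14 to 0.99 when leaving out an array, and Adgre1 in the antibiotic group against untreated livers was -0.10 with quantile normalization. Leaving out an array, Cd68 in the mutant against treated wild type ran from -0.11 to 0.22, and Cd5l in the antibiotic group against untreated livers from -0.41 to 0.20. Of 42 changes relative to Csf1r, recomputed with values under 4 set to 4 (added after seeing the data), 37 kept both, 4 gained a call and 1 reversed, Clec4f in the antibiotic group against the mutant, at -0.36. The 4 gained calls were Vsig4, Cd5l, Adgre1 and Cd68 in that comparison. Their exact permutation p stayed at 0.0286, and the adjusted p went from 0.05 to 0.04 because Clec4f reached 0.0286 too. The gains therefore tell nothing about these 4 genes. The reversed Clec4f value rests on 4 mutant arrays that were all set to 4. No paired analysis was possible because the labels number the arrays from 1 to 15 and no groups share a number. Signal near background limits Timd4, Marco and Cd68 in untreated livers and Vsig4, Clec4f, Cd163 and Adgre1 in the mutant, where folds are bounds.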
